A study of Mus musculus with 2 samples.

Results

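The 10 genes studied are ones that p53 is known to switch on, grouped as targets of arrest and feedback: Cdkn1a, Mdm2, Ccng1, Btg2, Sesn2, Zmat3, Trp53inp1, Phlda3, Aen and Gdf15. Not all of their products arrest the cell cycle, restrain growth or feed back on p53 itself, and Aen takes part in cell death. The genes were taken by gene symbol, and all 10 were found once each among the 32285 genes of both count matrices. The cells, labelled as mouse hematopoietic stem cells from blood, spent 48 h in suspension with RO-3066 or with dimethyl sulfoxide (DMSO), a common solvent, and were then profiled by droplet sequencing of transcript 3' ends. The labels give neither a target nor a dose for RO-3066, and name no strain, genotype or number of animals. There was 1 library per treatment, so differences between them could not be set against replicates and no test was made; the intervals given are exact at 95%, that of a difference of shares excepted, and reflect counting error alone.

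The transcription factor p53, encoded by Trp53, is kept low in unstressed cells because the ubiquitin ligase Mdm2 marks it for destruction. Damage to DNA stabilises p53, which then binds paired copies of a short motif near its target genes and raises their transcription. One of these targets is Mdm2, which closes a negative feedback loop, and another is Cdkn1a, whose product p21 blocks cyclin-dependent kinases. In hematopoietic stem cells p53 is known to support quiescence and to limit the survival of cells with damaged genomes.

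After filtering, 3683 RO-3066 cells had a median of 34827 UMIs (unique molecular identifiers, barcodes that mark each captured RNA molecule) and 5833 DMSO cells had a median of 23955, a ratio of 1.45. Shares of cells are therefore given for cells thinned to 10000 UMIs each, which left 3559 RO-3066 and 5749 DMSO cells, and levels as CPM, the summed UMIs of a gene per 1000000 UMIs of its library. The libraries shared 7 cell barcodes. Of 12 stem cell markers 11 reached 5 CPM in at least 1 library, with Procr the exception (4.25 CPM with RO-3066, 4.64 CPM with DMSO). The platelet chemokine gene Pf4, a megakaryocyte marker, reached 4229 CPM with RO-3066 and 5145 CPM with DMSO, so both libraries also held megakaryocyte transcripts. Of 21 other measured megakaryocyte genes 9 were at least 1.5-fold higher in RO-3066 and 0 lower (median log2 ratio 0.51). Among all genes of at least 5 CPM 5.26% were higher by as much and 2.11% lower. Summed over 9 neutrophil and monocyte markers the levels were 142 and 144 CPM, over 8 lymphoid markers 87.7 and 50.02, and over 8 erythroid markers 469.99 and 215, in RO-3066 and in DMSO; the T cell marker Cd3e was at 0 in both. The 12 stem cell markers summed to 717 CPM with RO-3066 and 641 CPM with DMSO, mast cell and basophil markers to 7.21 and 2.89 CPM, dendritic markers to 2.41 and 3.01 CPM, and endothelial and stromal markers to 32.4 and 25.9 CPM; the part of these other cells in the results was not tested.

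The promoters are shown because the genes are grouped here by a shared regulator. RefSeq windows of 300 bases, 250 before and 50 from the transcription start (GRCm38.p6, the assembly of mm10), were available for 8 of the 10 genes, Zmat3 and Trp53inp1 not being among them. The p53 half-site motif was found in 5 of their 11 windows, those of Cdkn1a, Mdm2, Ccng1 and, as the same 10 bases seen from both of its starts, Aen; the motif reads the same on both strands and occurred in 8.36% of all 32851 windows. In the sequences below, 5′ to 3′ on the strand of the gene, capitals mark each match. The Cdkn1a window is that of the upstream start (chr17:29090729-29091028, plus strand) and holds 2 matches, whereas the window of its downstream start held none. The Mdm2 window is chr10:117710709-117711008 (minus strand), the Ccng1 window chr11:40755237-40755536 (minus strand) and the Aen window that of its downstream start, chr7:78895808-78896107 (plus strand).
Cdkn1a: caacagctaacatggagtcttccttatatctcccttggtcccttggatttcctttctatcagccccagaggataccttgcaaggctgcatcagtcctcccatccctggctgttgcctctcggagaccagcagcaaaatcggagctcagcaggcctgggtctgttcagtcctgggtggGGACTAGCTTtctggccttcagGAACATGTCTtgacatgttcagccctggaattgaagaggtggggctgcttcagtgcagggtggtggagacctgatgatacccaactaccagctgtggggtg
Mdm2: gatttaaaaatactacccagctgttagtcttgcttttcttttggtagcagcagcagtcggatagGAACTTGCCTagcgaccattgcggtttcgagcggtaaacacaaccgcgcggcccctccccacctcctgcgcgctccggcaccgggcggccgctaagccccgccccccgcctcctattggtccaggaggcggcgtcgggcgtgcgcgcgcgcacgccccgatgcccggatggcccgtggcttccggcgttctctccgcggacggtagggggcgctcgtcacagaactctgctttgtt
Ccng1: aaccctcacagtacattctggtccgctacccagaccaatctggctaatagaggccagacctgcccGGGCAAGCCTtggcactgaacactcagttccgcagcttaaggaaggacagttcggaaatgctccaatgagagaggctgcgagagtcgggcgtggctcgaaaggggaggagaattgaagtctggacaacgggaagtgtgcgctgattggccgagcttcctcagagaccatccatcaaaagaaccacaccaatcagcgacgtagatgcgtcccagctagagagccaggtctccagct
Aen: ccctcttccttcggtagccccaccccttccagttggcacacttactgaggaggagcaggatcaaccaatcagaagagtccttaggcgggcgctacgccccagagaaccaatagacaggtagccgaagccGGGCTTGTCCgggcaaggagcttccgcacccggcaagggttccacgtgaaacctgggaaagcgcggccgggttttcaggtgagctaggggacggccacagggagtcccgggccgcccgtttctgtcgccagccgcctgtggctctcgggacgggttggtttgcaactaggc
The windows of Btg2, Sesn2, Phlda3 and Gdf15 held no match to these letters, which says nothing of p53 binding elsewhere.

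The question was whether these p53 targets stood higher in RO-3066 cells, by how much, and in how many of the cells. All 10 had a higher summed level in RO-3066. Together they took 242 CPM with RO-3066 and 149 CPM with DMSO, a ratio of 1.62 (1.598 to 1.65). The sizes ranged from 1.13-fold for Aen to 7.11-fold for Gdf15. Levels of 5 CPM or more in one library or the other were met by 9 of the genes, all 9 of them above 0 on the log2 scale, beside 49.7% of all genes. A level at least 1.5-fold above DMSO was seen for 5 (log2 ratio of CPM plus 1) and one as far below for 0, beside 5.26% higher and 2.11% lower among all 9337 such genes. Among the 9, 4 were at least 2-fold higher, against 1.31% of all genes. The median log2 ratio of the 9 was 0.64 (lowest gene 0.17, highest gene 2.34), beside -0.0024 over all genes. Trp53inp1, at 4.92 CPM with RO-3066, missed the minimum level. The count of 5 was 8 with equal weight for each cell or with thinned cells, where all 10 genes met the minimum level. It was 3 of 8 measured genes without the cells of high p53 target level described below.

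**Figure D1:**
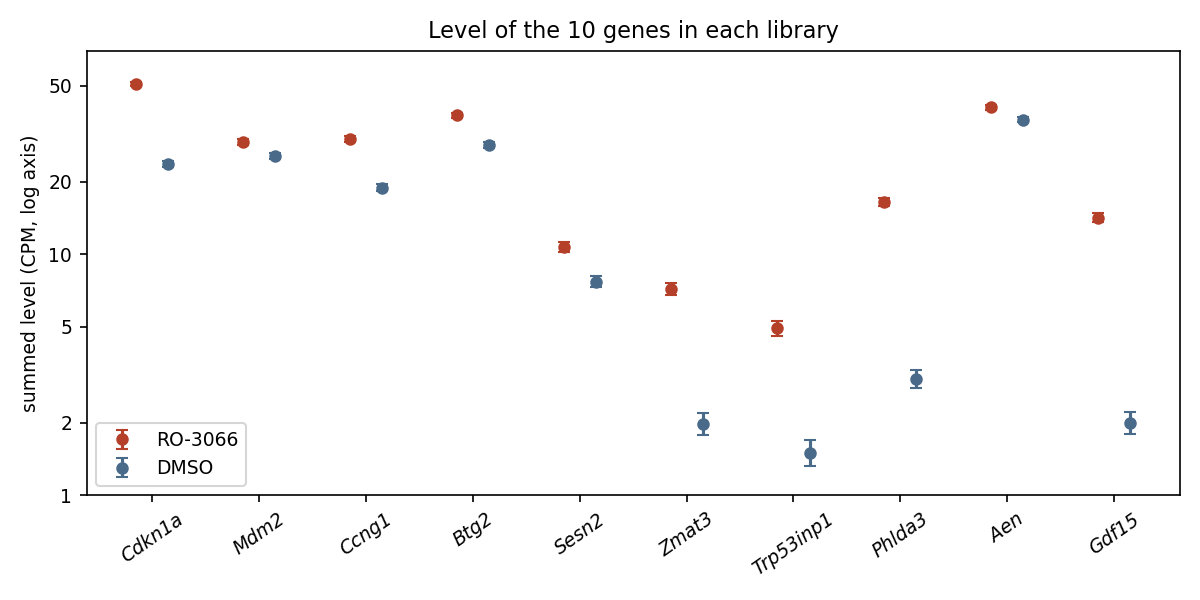
Summed level of each gene in CPM (log axis) in the RO-3066 library (red) and the DMSO library (blue), with exact Poisson intervals of the counts as bars. Every gene stood higher in RO-3066, and the gap was widest for Gdf15 (14.2 against 1.999 CPM) and Phlda3 (16.4 against 3.05 CPM).

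Among the genes of arrest, Cdkn1a (chromosome 17, 29090976 to 29100727, plus strand; coordinates of this and the other genes are from GENCODE M21, mm10) stood at 50.9 CPM with RO-3066 and at 23.8 CPM with DMSO, a ratio of 2.14 (2.06 to 2.22). Btg2, an antiproliferative protein that recruits the deadenylase complex to messenger RNAs (chromosome 1, 134075170 to 134079120, minus strand), stood at 37.8 CPM with RO-3066 and at 28.5 CPM with DMSO, a ratio of 1.33 (1.28 to 1.38). Cdkn1a thus passed 2-fold, whereas Btg2 did not reach 1.5-fold.

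The feedback genes were set apart from each other. Ccng1, which encodes cyclin G1, a partner of protein phosphatase 2A that acts on Mdm2 (chromosome 11, 40748552 to 40755311, minus strand), stood at 30.01 CPM with RO-3066 and at 18.9 CPM with DMSO, a ratio of 1.59 (1.52 to 1.66). Mdm2 itself (chromosome 10, 117688875 to 117710758, minus strand) stood at 29.4 CPM with RO-3066 and at 25.7 CPM with DMSO, a ratio of 1.14 (1.10 to 1.19). Trp53 stood at 189.9 CPM with RO-3066 and at 169.8 CPM with DMSO, a ratio of 1.12 (1.10 to 1.14).

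Among Phlda3, Sesn2 and Gdf15 the ratios were far apart. Phlda3, a small lipid-binding protein that keeps the kinase Akt off the membrane (chromosome 1, 135766119 to 135769136, plus strand), stood at 16.4 CPM with RO-3066 and at 3.05 CPM with DMSO, a ratio of 5.39 (4.91 to 5.93). Sesn2, a sestrin that lowers mTORC1 activity when leucine is scarce (chromosome 4, 132492032 to 132510501, minus strand), stood at 10.7 CPM with RO-3066 and at 7.69 CPM with DMSO, a ratio of 1.39 (1.29 to 1.49). Gdf15, a secreted stress cytokine of the TGF-beta superfamily (chromosome 8, 70629393 to 70632456, minus strand), stood at 14.2 CPM with RO-3066 and at 1.999 CPM with DMSO, a ratio of 7.11 (6.35 to 7.97). Gdf15 and Phlda3 had the widest ratios of the 10, both from levels in DMSO near or below 3 CPM.

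The other genes were at both ends of the range. Zmat3, a zinc finger protein that binds RNA and affects splicing (chromosome 3, 32334792 to 32366014, minus strand), stood at 7.18 CPM with RO-3066 and at 1.98 CPM with DMSO, a ratio of 3.63 (3.22 to 4.11). Trp53inp1, a nuclear and autophagy-linked stress protein (chromosome 4, 11156431 to 11174379, plus strand), stood at 4.92 CPM with RO-3066 and at 1.495 CPM with DMSO, a ratio of 3.29 (2.86 to 3.8). Aen, a nuclease that takes part in cell death (chromosome 7, 78895854 to 78911209, plus strand), stood at 40.8 CPM with RO-3066 and at 36.3 CPM with DMSO, a ratio of 1.13 (1.09 to 1.16). The genes with the most UMIs in DMSO, Aen, Btg2, Mdm2 and Cdkn1a, thus included 3 of the 4 lowest ratios. Gm12981, annotated as an antisense RNA gene, overlaps Sesn2, and the use of strand in counting is not stated; it had 35 UMIs in RO-3066 and 19 in DMSO.

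Per cell, more RO-3066 than DMSO cells had a transcript of each gene, and the cells with any transcript held more of each on average, by 1.01 to 1.603 times. At equal depth a Cdkn1a UMI was found in 26.2% of RO-3066 cells (24.8 to 27.7) and 16.9% of DMSO cells (15.9 to 17.9), a share 1.55 times as high, and cells with any held 2.05 UMIs in RO-3066 and 1.35 in DMSO, 1.52 times as many. A Gdf15 UMI was found in 11.2% of RO-3066 cells (10.1 to 12.2) and 2.05% of DMSO cells (1.70 to 2.45), with 1.77 and 1.10 UMIs in cells with any. For Phlda3 the shares were 12.8% in RO-3066 (11.7 to 14.0) and 2.45% in DMSO (2.07 to 2.89). Zmat3 was found in 7.02% of RO-3066 and 1.95% of DMSO cells, and Trp53inp1 in 6.07% and 1.70%, mostly as a single UMI.

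For the other 5 genes the ratio of shares was between 1.16 (Aen) and 1.63 (Btg2). Aen was found in 33.0% of RO-3066 and 28.4% of DMSO cells, Mdm2 in 24.7% and 20.6%, Btg2 in 23.1% and 14.2%, Ccng1 in 22.5% and 15.1%, and Sesn2 in 11.01% and 6.84%. The UMIs per cell with any were 1.603 times those of DMSO for Gdf15, 1.24 times for Phlda3, 1.23 times for Ccng1, 1.15 times for both Zmat3 and Trp53inp1, 1.12 times for Mdm2, 1.06 times for both Aen and Btg2 and 1.01 times for Sesn2. Without thinning the shares were higher in both libraries and the order of the libraries was the same: a Cdkn1a UMI was then found in 54.5% of RO-3066 and 33.4% of DMSO cells, and a Gdf15 UMI in 26.4% and 4.70%.

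**Figure D2:**
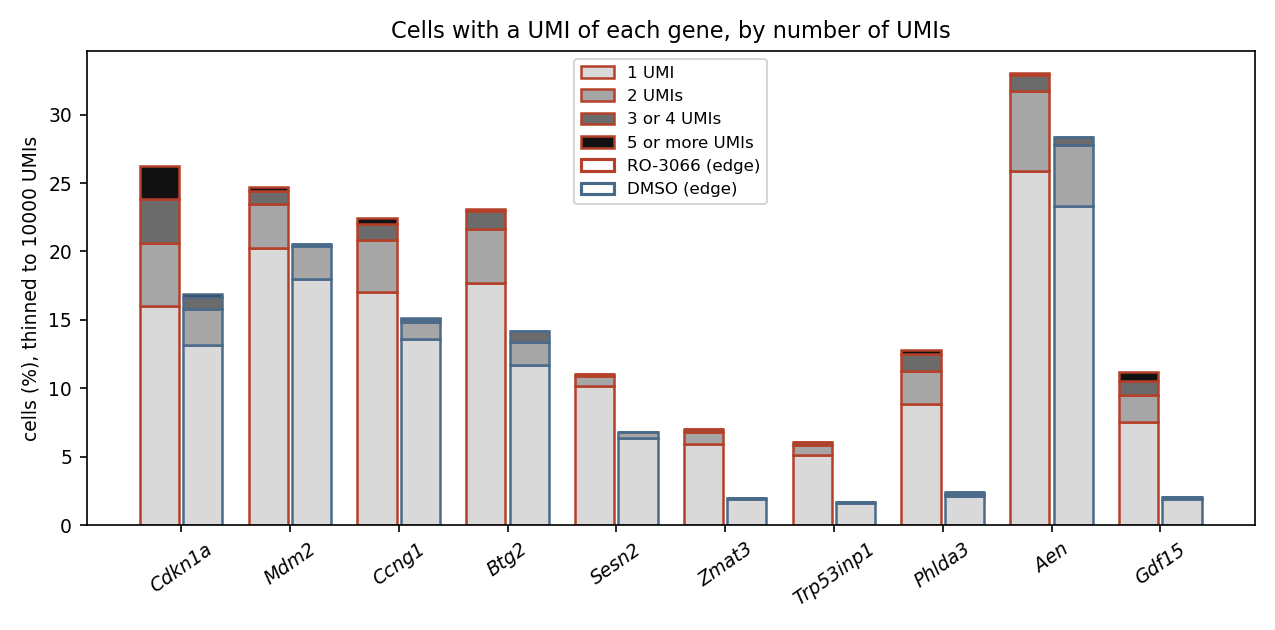
Percentage of cells, thinned to 10000 UMIs each, with at least 1 UMI of each gene in RO-3066 (red edge, left bar) and DMSO (blue edge, right bar), split by the number of UMIs per cell. Cells with 3 or more UMIs made up 5.62% for Cdkn1a in RO-3066 against 1.08% in DMSO and stayed below 2% for each of the other 9 genes in both libraries.

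A minority of the cells held several transcripts of a gene. At least 3 Cdkn1a UMIs were found in 5.62% of RO-3066 and 1.08% of DMSO cells, and 5 or more in 85 of 3559 and 12 of 5749 cells. Had Cdkn1a UMIs been spread over cells at random (Poisson), 41.5% of RO-3066 and 20.3% of DMSO cells would have had one, against the 26.2% and 16.9% found, and the variance was 3.55 times the mean in RO-3066 and 1.74 times in DMSO. For Gdf15 random spread would have given 17.9% of RO-3066 cells against 11.2% found, with a variance 3.36 times the mean, while in DMSO it would have given 2.24% against 2.05% found. Aen was the opposite case, with 34.2% by random spread against 33.0% found in RO-3066, 28.9% against 28.4% in DMSO, and variances 1.11 and 1.04 times the mean. Sesn2 (1.07 and 1.09) and, in DMSO, Mdm2 (1.07) were likewise close to even. No cell type that should lack these genes was available, so the share that RNA free in the droplets would give was not measured.

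More RO-3066 than DMSO cells held several of the 10 genes at once, and in both libraries the cells with 5 or more exceeded what independent detection gives. The mean number of the 10 genes detected per cell was 1.78 in RO-3066 and 1.10 in DMSO at equal depth. At least 3 were detected in 22.9% of RO-3066 cells (21.5 to 24.3) and 8.44% of DMSO cells (7.73 to 9.18), a difference of 14.5 points (12.9 to 16.0), which was 7.94 points at 5000 UMIs per cell and 20.4 at 20000. At least 5 were detected in 6.63% of RO-3066 cells (5.84 to 7.50) and 0.574% of DMSO cells (0.395 to 0.805). Independent detection, given by the product of the single shares, would have put 1.68% of RO-3066 and 0.128% of DMSO cells there, so the observed shares were 3.94 times as high in RO-3066 and 4.50 times in DMSO; measured this way, the excess was not larger in RO-3066. The observed counts were in excess at both ends. None of the genes was detected in 19.7% of RO-3066 and 31.1% of DMSO cells, against 13.4% and 29.5% under independence, whereas at least 3 would have been detected in 25.2% and 7.95%, so the gap between the libraries at 3 genes was no larger than the single shares alone give. At least 8 genes were detected in 48 RO-3066 and 2 DMSO cells, and at least 9 in 14 RO-3066 cells and 0 of 5749 DMSO cells, which allows a share of up to 0.0522% if 3 counts are taken as the limit that a count of 0 allows.

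**Figure D3:**
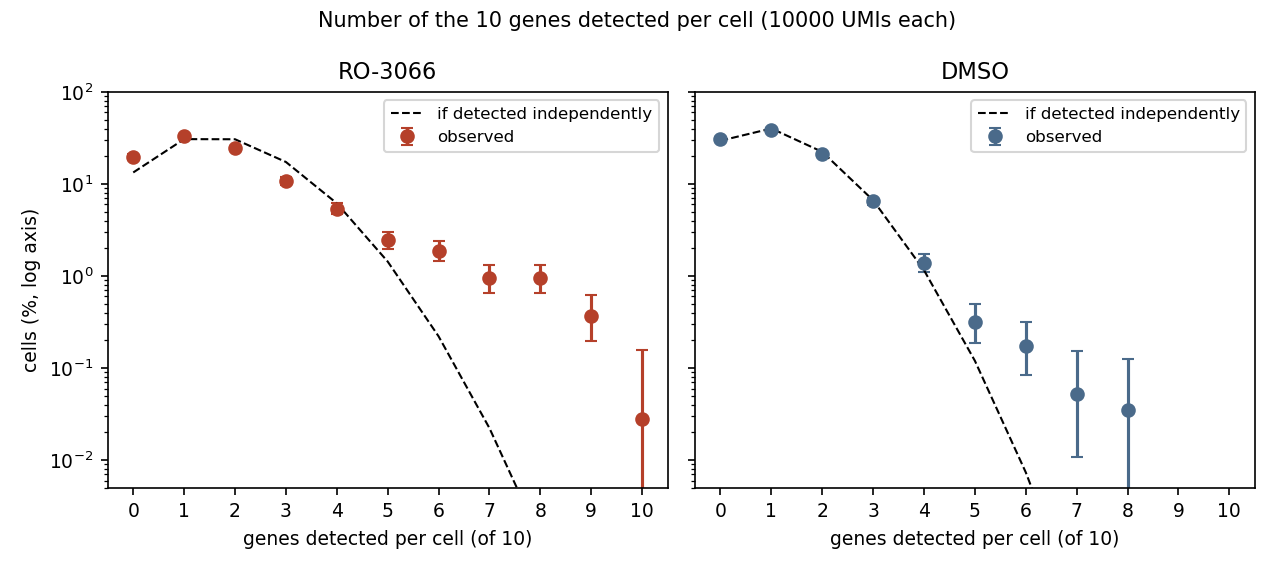
Percentage of cells (log axis) with 0 to 10 of the genes detected, in RO-3066 (left) and DMSO (right), with exact 95% intervals; the dashed line is the share that independent detection would give. In both libraries the observed points lay above the line from 5 genes up to the largest number found (10 in RO-3066, 8 in DMSO), and RO-3066 had 6.63% of its cells at 5 or more against 0.574% in DMSO.

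The cells with at least 5 of the 10 genes carried a large part of the transcripts in RO-3066. These 236 cells, 6.63% of the library, held 34.9% of all UMIs of the 10 genes, 52.2% of those of Gdf15, 52.1% of Phlda3, 50.2% of Trp53inp1, 47.3% of Cdkn1a and 44.3% of Zmat3, but 16.7% of Aen and 20.7% of Btg2. The 33 such cells of DMSO held 4.57% of the UMIs of the 10 genes and at most 22.4%, for Phlda3. Because these cells are defined by the same transcripts, these values describe how uneven the spread was and are no test.

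Pairs of genes differed in how often they were found together. Of the 44 pairs for which independent detection would give at least 20 RO-3066 cells, all 44 were found together more often than that, with a median ratio of 1.55 and a range of 1.07 to 3.06. In DMSO 26 pairs could be judged in this way, of which 21 were above 1, with a median of 1.10 and a range of 0.824 to 1.89; in these 26 the ratio was higher in RO-3066 each time. The highest ratios in RO-3066 were those of Zmat3 and Phlda3, found together in 98 cells (3.06 times), of Trp53inp1 and Gdf15 in 72 cells (2.99 times), of Trp53inp1 and Phlda3 in 82 cells (2.96 times) and of Phlda3 and Gdf15 in 149 cells (2.93 times). These pairs had too few cells in DMSO to be among the 26, but Trp53inp1 and Phlda3 occurred together in 14 DMSO cells (5.82 times) and Zmat3 and Phlda3 in 11 (4.0045 times), both ratios above those of RO-3066. Zmat3 and Trp53inp1, below 20 cells by independence in both libraries, were found together in 48 RO-3066 cells (3.16 times) and 7 DMSO cells (3.67 times). Cdkn1a and Phlda3 occurred together in 260 RO-3066 cells (2.17 times) and in 45 DMSO cells (1.89 times, the highest there). Btg2 and Aen had the lowest ratio in RO-3066, with 290 RO-3066 cells (1.07 times) and 244 DMSO cells (1.05 times).

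**Figure D4:**
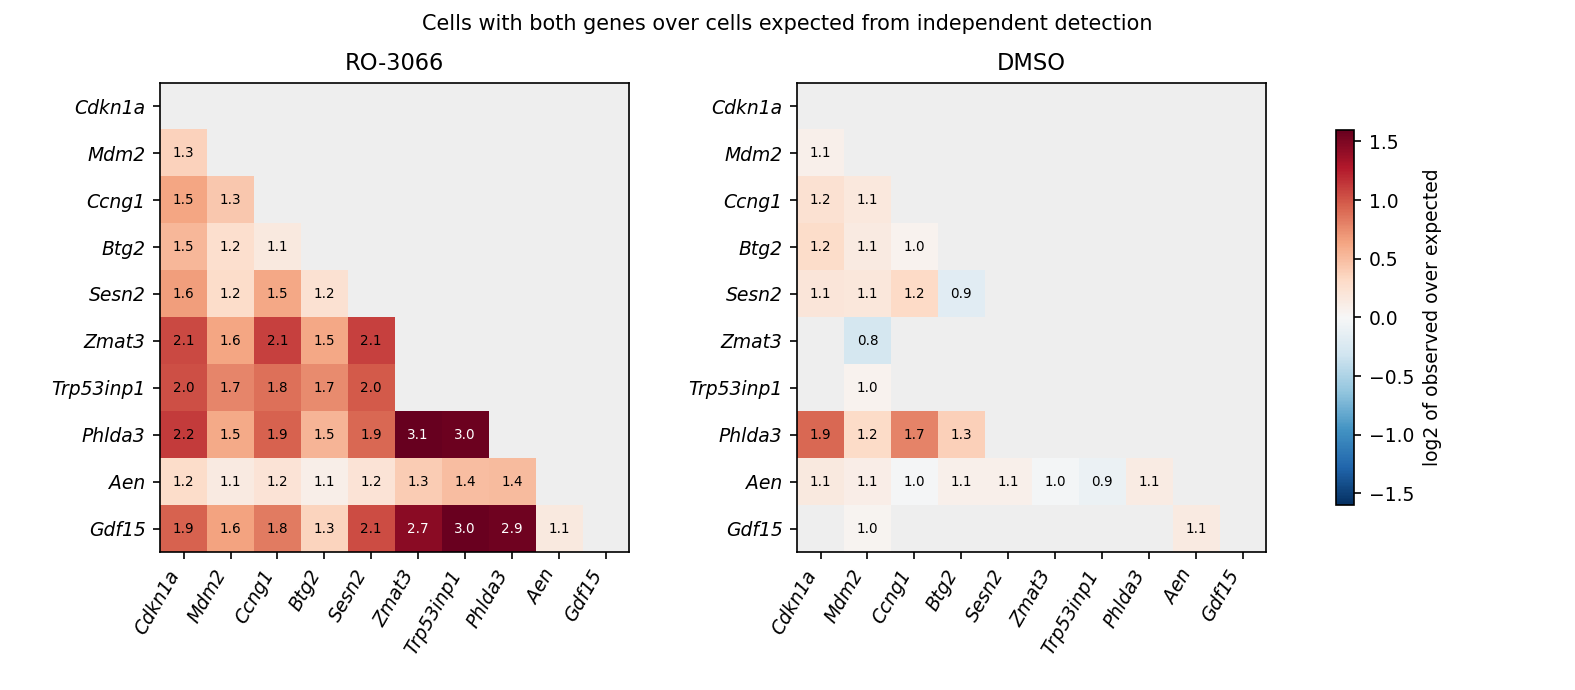
For each pair of genes, the number of cells with both over the number that independent detection would give, in RO-3066 (left) and DMSO (right); colour gives the log2 of that ratio, and grey squares below the diagonal are pairs for which independence gives fewer than 20 cells. The darkest squares in RO-3066 join Zmat3, Trp53inp1, Phlda3 and Gdf15 (2.73 to 3.06), and there Aen stayed between 1.07 and 1.41 with every partner.

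Cells with 5 or more of the 10 genes held more transcripts of other p53 targets than cells with none. The pro-apoptotic gene Bax stood at 244, 279, 316, 329 and 432 CPM in RO-3066 cells with 0, 1, 2, 3 and 4 of the genes and at 664 CPM with 5 or more; in DMSO cells it stood at 239, 245, 261, 286 and 340 CPM and at 627 CPM. The 47 further p53 targets of 2 lists summed to 4274 CPM in RO-3066 cells with 5 or more and 2458 CPM in those with 0, and to 3755 and 2421 CPM in DMSO. In DMSO this sum was level from 0 to 3 genes, at 2414 to 2441 CPM, and stood at 2750.0 CPM in the 80 cells with 4. Trp53 did not follow these, with 183 CPM at 5 or more and 201 at 0 in RO-3066, and 188 and 178 in DMSO. Pf4 in RO-3066 was at 1474 CPM with 5 or more genes, 3063 CPM with 3 and 1495 CPM with 0, whereas in DMSO it was at 6576 CPM with 5 or more and 1823 CPM with 0. Median UMIs per cell before thinning were 31546 at 5 or more and 34759 at 0 in RO-3066, and 25596 and 23778 in DMSO, and median mitochondrial shares were 1.82% and 1.66%, and 1.73% and 1.47%. Cells without a positive S or G2M score, called G1, made up 10.2% of RO-3066 cells with 5 or more genes and 0.999% of those with 0, and 21.2% and 4.42% in DMSO. Most cells were called G2M in either case, 74.6% and 75.3% in RO-3066 and 54.5% and 58.6% in DMSO. Cells called S made up 15.3% and 23.7% in RO-3066, and 24.2% and 37.0% in DMSO.

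By a rule on correlation across cells, the genes outside the 10 whose transcripts went most with theirs were Bax, Rps27l, Serpine2, 9230114K14Rik, Ercc5, Dcxr, Ptp4a3, Bbc3, Cox6b2 and Cd81, out of 8778 compared. Of these, 5 (Bax, Rps27l, Ercc5, Dcxr and Bbc3) were on the lists of p53 targets, which held 28 of the genes compared. Others of the 28 were far from them, among them Gpx1 with a mean correlation of -0.041 and Xpc with -0.032. Bax had a correlation of 0.33 across 3559 RO-3066 cells and 0.10 across 5749 DMSO cells, and Cox6b2 had 0.25 and 0.0065. The cells of 1 library share that library and were thinned to the same depth, and values as low as those of DMSO are no finding.

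When the cells were split by a measure that left out the 10 genes, the summed level of those 47 other p53 targets, the 10 genes were higher in RO-3066 on both sides, with 1 exception. The limit was the 95th percentile of DMSO cells, so 5.01% of DMSO cells lay above it, against 13.4% of RO-3066 cells. The list is dominated by Rps27l, Gpx1, Bax and Siva1, which held 74.8% to 77.4% of its UMIs. Of these, Gpx1 was 1.77-fold higher in RO-3066, and its correlation with the 10 genes was -0.013 in RO-3066 and -0.070 in DMSO. Cells above the limit were shallower than those below, with medians of 25660 and 36830 UMIs in RO-3066 and 18901 and 24269 in DMSO. The part of Gpx1 and of depth in the shares was not tested. Above the limit the 10 genes summed to 850 CPM in RO-3066 and 385 in DMSO, and at least 5 genes were detected in 41.7% of RO-3066 and 6.81% of DMSO cells. Below the limit they summed to 183 CPM in RO-3066 and 140 in DMSO. There Gdf15 was still at 8.39 CPM with RO-3066 against 1.74 CPM with DMSO, Phlda3 at 8.11 against 1.70, Zmat3 at 4.2 against 1.63 and Cdkn1a at 31.9 against 20.1, whereas Mdm2 was at 24.2 against 25.0. A Gdf15 UMI was found in 35.3% of RO-3066 cells above the limit and 7.63% below it.

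The 10 genes differed in how they went with the Pf4 share of a cell, the share of its UMIs that were Pf4. Cells were put in 5 bins by the 20th, 40th, 60th and 80th percentiles of the DMSO cells (0.0176%, 0.0361%, 0.0958% and 0.385% Pf4), which held 1132, 775, 622, 559 and 595 RO-3066 cells from lowest to highest Pf4 and 1166 or 1167 DMSO cells each. Depth went with this share: median UMIs per cell were 24953 in the lowest and 82422 in the highest bin of RO-3066, and 21304 and 36483 in DMSO. In RO-3066 the 10 genes together had 244 CPM in the lowest and 238 in the highest bin (highest over lowest 0.975, 0.947 to 1.003). In DMSO they had 109 CPM in the lowest and 201 in the highest bin, 1.84-fold higher in the highest (1.77 to 1.92). At equal depth any of the 10 genes was found in 79.4% of RO-3066 cells of the lowest and 87.5% of the highest bin. In DMSO it was 63.8% and 79.8%. The direction in RO-3066 was not stable: the log2 ratio of the highest over the lowest bin, -0.037, became 0.52 without the cells of high p53 target level and 0.34 in cells of 15000 to 40000 UMIs.

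Btg2 went most strongly with Pf4. From the lowest to the highest bin it stood at 16.0, 16.5, 22.6, 34.9 and 67.3 CPM in RO-3066 and at 7.05, 7.47, 8.78, 16.6 and 61.0 CPM in DMSO. The highest bin was thus 4.2-fold above the lowest in RO-3066 (3.82 to 4.63) and 8.65-fold in DMSO (7.46 to 10.1). Cdkn1a stood at 48.1, 45.7, 60.9, 52.7 and 49.5 CPM in RO-3066 and at 13.0, 14.5, 19.3, 26.2 and 33.0 CPM in DMSO. It thus went up with Pf4 in DMSO (2.53-fold, 2.25 to 2.85) but had much the same level in the lowest and highest bins of RO-3066 (1.03-fold, 0.965 to 1.10). Its spread over cells was not the same there. At equal depth a Cdkn1a UMI was found in 25.1% of RO-3066 cells of the lowest and 35.5% of the highest bin. At least 3 were found in 6.41% and 3.55%. In DMSO these shares were 12.5% and 24.7% for any and 0.439% and 2.08% for at least 3.

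All genes but Btg2 and Cdkn1a, those with the widest ratios among them, were lower in the highest than in the lowest bin of RO-3066. None of them fell at every step, and Mdm2, Ccng1, Zmat3 and Aen were highest in the middle bin of RO-3066. Gdf15 stood at 20.5, 19.0, 19.98, 11.6 and 7.74 CPM there and between 1.75 and 2.35 CPM in all DMSO bins. Phlda3 stood at 23.3, 16.9, 22.7, 17.4 and 9.16 CPM in RO-3066 and between 2.59 and 3.36 CPM in DMSO. In RO-3066 the highest bin was at 0.377-fold of the lowest for Gdf15 (0.332 to 0.427), 0.394-fold for Phlda3 (0.350 to 0.442), 0.215-fold for Trp53inp1 (0.167 to 0.273), 0.533-fold for Sesn2 (0.463 to 0.612) and 0.648-fold for Zmat3 (0.546 to 0.768). In DMSO the interval lay below 1 for Trp53inp1 (0.378-fold, 0.249 to 0.574) and included 1 for Gdf15 (0.837-fold, 0.599 to 1.18), Phlda3, Sesn2 and Zmat3. The fall in RO-3066 was smaller for Ccng1 (0.766-fold, 0.706 to 0.831), Mdm2 (0.866-fold, 0.796 to 0.942) and Aen (0.900-fold, 0.839 to 0.966). In DMSO these genes were higher in the highest than in the lowest bin, at 1.29-fold, 1.33-fold and 1.17-fold. Of them only Aen rose at every step there, and Mdm2 was lowest in the middle bin.

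The ratio between the libraries was narrower in the highest than in the lowest Pf4 bin for all 10 genes. In the lowest bin Cdkn1a was 3.69-fold (3.27 to 4.16), Phlda3 8.97-fold and Gdf15 9.82-fold higher in RO-3066, and in the highest bin 1.5-fold (1.42 to 1.59), 2.73-fold and 4.42-fold. Mdm2 was 1.30-fold higher in RO-3066 in the lowest bin (1.17 to 1.45) and at 0.847-fold in the highest (0.790 to 0.907), and Aen was 1.27-fold higher and at 0.977-fold. With 1 library per treatment the difference between bins was not tested. The share of cells above the limit on other p53 targets also went down with Pf4, being 17.1% in the lowest and 3.19% in the highest bin of RO-3066 and 7.11% and 1.63% in DMSO; its part in the result was not tested. At least 5 of the 10 genes were detected in 8.17% of RO-3066 cells in the lowest bin and 3.38% in the highest, and in 0.614% and 1.04% of DMSO cells.

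**Figure D5:**
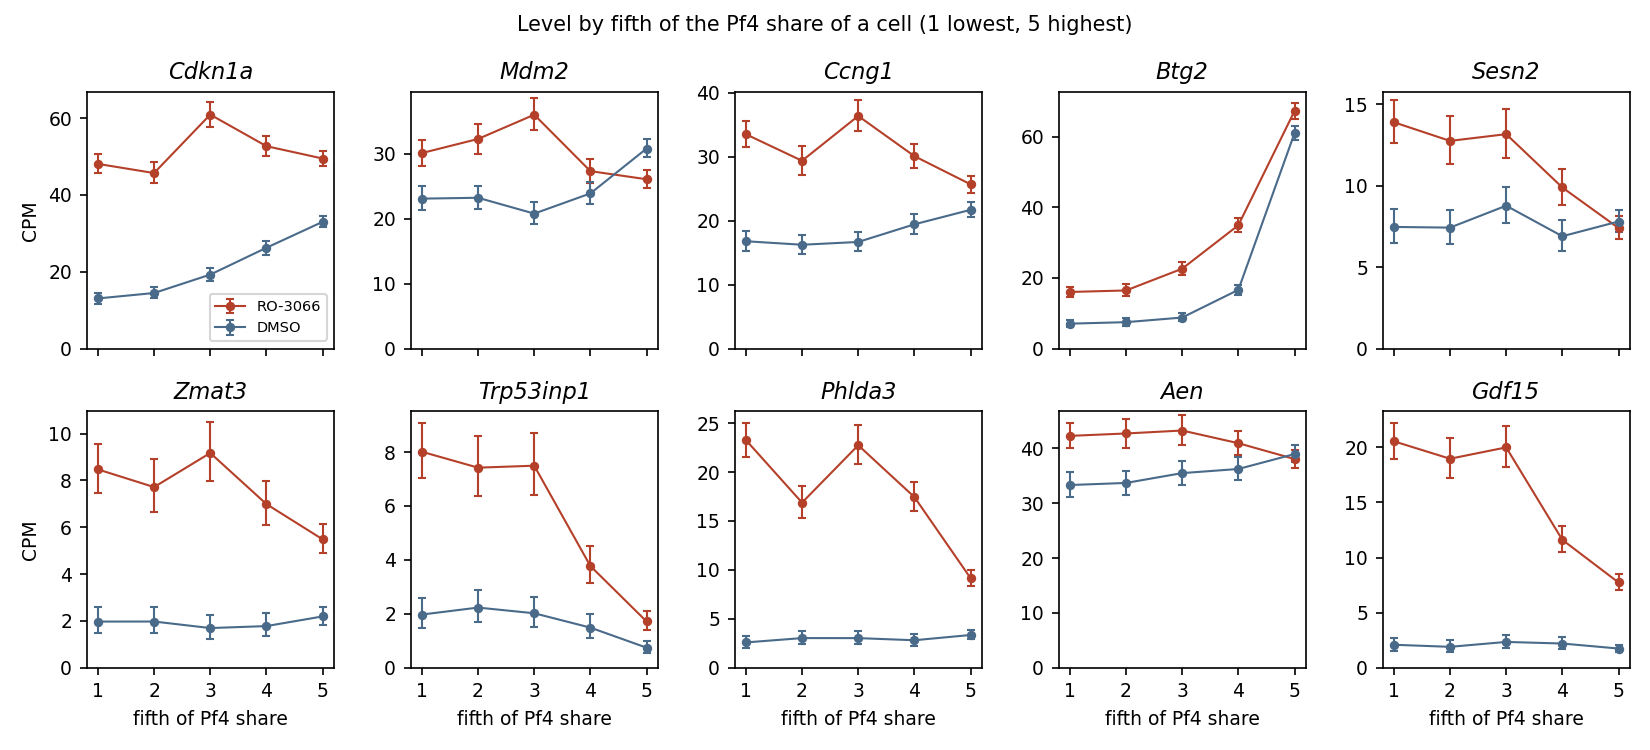
Level of each gene in CPM in 5 bins of the Pf4 share of a cell, from lowest (1) to highest (5), in RO-3066 (red) and DMSO (blue) with exact Poisson intervals. Btg2 climbed with Pf4 in both libraries and Cdkn1a in DMSO, and every gene but these was lowest in the highest bin of RO-3066.

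By cell cycle call, the summed level of the 10 genes was highest in the few cells called G1. Together they had 787 CPM in 86 RO-3066 cells and 275 CPM in 223 DMSO cells called G1, 218 and 148 CPM in cells called S, and 238 and 145 CPM in cells called G2M. In cells called G1 Cdkn1a was at 203 CPM with RO-3066 and 75.1 CPM with DMSO, and Gdf15 at 87.8 and 4.83 CPM. Aen was at 72.6 CPM in such cells with RO-3066 but at 30.1 CPM with DMSO, below the 38.8 and 35.2 CPM of DMSO cells called S and G2M. At equal depth any of the genes was found in 91.9% of RO-3066 and 64.6% of DMSO cells called G1, 79.0% and 69.3% of those called S, and 80.3% and 68.9% of those called G2M. In cells called S Cdkn1a was at 46.3 CPM with RO-3066 and 29.1 CPM with DMSO, and in cells called G2M at 49.4 and 19.5 CPM. Each of the 10 genes had the higher level in RO-3066 within each call, although for Aen in cells called S the ratio was 1.01 (0.945 to 1.09). Cells called G1 were shallower, with a median of 20215 UMIs in RO-3066 and 14207 in DMSO.

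Other genes of the pathway differed less than the 10. Their counts stand beside 5.26% at least 1.5-fold higher and 2.11% as far lower among all genes of at least 5 CPM. None of 17 measured genes on the list of p53 and its regulators, Trp53 among them, passed 1.5-fold in either direction. Their median log2 ratio of CPM plus 1, the scale of all these counts, was 0.052. Named by size among those of at least 20 CPM were the kinase gene Hipk2 at 1.42-fold and Chek1, a checkpoint kinase, at 1.25-fold. The ubiquitin ligase gene Rchy1, named by the same rule, was at 1.24-fold. None of 10 measured p53 targets of cell death passed 1.5-fold either (median 0.21), with Bbc3 at 1.47-fold, Bax at 1.197-fold and Pycard at 1.16-fold. Of 19 measured p53 targets of repair and metabolism 3 were at least 1.5-fold higher and 0 lower (median 0.20): Gpx1, a peroxidase, stood at 472 CPM with RO-3066 and at 267 CPM with DMSO (1.77-fold), while Plk2, at 5.76 and 2.21 CPM, and Dcxr, at 18.3 and 9.16 CPM, did not reach the 20 CPM of the naming rule and were named after their values were seen. Pml, at 34.8 and 23.1 CPM, was at 1.51-fold but missed the limit with 1 CPM added (log2 ratio 0.57), and Rps27l, named as the next of the genes of at least 20 CPM, was at 0.841-fold.

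Gdf15 and Sesn2 also answer to the integrated stress response, and Btg2 is an immediate early gene. Of 21 measured genes of the integrated stress response 2 were at least 1.5-fold higher and 0 lower, with a median log2 ratio of 0.058. They were Ddit3, a stress transcription factor gene, at 22.3 CPM with RO-3066 and 8.19 CPM with DMSO (2.72-fold), and Atf5, with 23.6 and 9.49 CPM (2.48-fold), while Atf4 was at 1.42-fold. In cells with at least 5 of the 10 genes this list summed to 1237 CPM and in cells with 0 to 1497 CPM in RO-3066, and to 1185 and 1365 CPM in DMSO. Phgdh, at 270 CPM with RO-3066, stood far above Ddit3 and Atf5 in that sum. The list of immediate early genes went the other way, with 741 and 510 CPM in RO-3066 and 685 and 490 CPM in DMSO. The part of either response was not tested. Of 14 measured immediate early genes 1 was at least 1.5-fold higher, Klf2 at 5.67 against 3.25 CPM, named after its values were seen, and 0 lower (median 0.20), and those named by rule were Btg1 at 1.31-fold, Ier5 at 1.29-fold and Dusp2 at 1.22-fold.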

How the data were processed

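UMI counts of single cells were measured in 1 RO-3066 and 1 DMSO library, grouped by the treatment in the labels. The authors deposited 1 matrix of raw UMI counts for either treatment, with genes and barcodes. Cell Ranger 5.0.1 and mm10 are named per the submitters' processing notes and Cell Ranger 7.1.0 per the file headers; the annotation release and the use of intron reads are not stated by them. Barcodes with at least 1000 UMIs, 500 genes and at most 10% mitochondrial UMIs were kept (84 RO-3066 and 26 DMSO left out), and likely doublets were taken out (0.8% per 1000 barcodes, scored by simulated doublets in the 50 nearest cells) (115 and 301 cells). The kept cells held 164155129 and 174567082 UMIs. Log2 ratios are of CPM plus 1, RO-3066 over DMSO, so they understate the ratios of low genes. Cells were thinned once to 10000 UMIs at random, leaving out 124 RO-3066 and 84 DMSO cells. Ratios have exact conditional Poisson intervals, shares Clopper-Pearson intervals and their difference a Newcombe interval (statsmodels 0.14.6); UMIs correct for amplification, and all intervals cover counting error only. Phases were scored with scanpy 1.11.5 from S and G2M gene lists, and G1 means neither score above 0.

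The 10 genes, the lists, the limits and the alternatives were chosen with earlier results of these data known. Besides the 10, Trp53 and Pf4, genes were named by rule: the 3 largest absolute log2 ratios per list among genes of at least 20 CPM, and the 10 highest mean correlations with the summed count of the 10 genes among genes found in at least 5% of thinned cells of each library. The alternatives were other scaling, weights, thinning, pseudocount, minimum level, filters, Pf4 bins and cells. The calculation was tested on simulated data. Python 3.11.15, numpy 2.4.6, scipy 1.17.1, scikit-learn 1.9.0, pandas 2.3.3 and matplotlib 3.10.9 were used.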

Additional observations from a re-analysis of the deposited data

How the results depend on the processing

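No paired analysis was possible because there was 1 library per treatment, and no alternative replaces a replicate. The count of 5 genes at least 1.5-fold higher, of 9 measured, was 8 with every cell at the same weight and 8 with cells thinned to 10000 UMIs (10 genes measured in both). It was 2 with a minimum of 20 CPM (5 genes measured) and 3 without the cells of high other p53 target load (8 genes measured). Under the other 7 alternatives it was between 4 and 7. The median log2 ratio of the genes stayed between 0.34, without those cells, and 1.08, in cells of 15000 to 40000 UMIs. Of the single genes Mdm2 alone turned, to a log2 ratio of -0.046 without those cells, and the other 9 kept their direction under the 9 alternatives run for single genes.

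The difference in the share of cells with at least 3 genes, 14.5 points, was 7.94 points with thinning to 5000 UMIs, 20.4 with 20000, 31.9 without thinning, 3.65 when at least 2 UMIs were asked for and 9.05 without the cells of high other p53 target load. The log2 ratio of the summed level in the highest over the lowest Pf4 bin was -0.037 in RO-3066, and it was -0.18 with cells at the same weight, -0.13 with thinning, 0.0028 with bins from both libraries pooled, 0.016 with bins of other megakaryocyte genes, 0.52 without the cells of high other p53 target load and 0.34 in cells of 15000 to 40000 UMIs, so it has no settled direction. In DMSO it was 0.88, with 0.64, 0.69, 0.82 and 0.56 for the same weight, thinning, leaving out the high-load cells and the UMI range. The cause of these changes was not tested.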
